A study of Oryctolagus cuniculus with 54 samples.

Results

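The acute genes of the preterm delivery day were the 100 genes, of 29587 in the count table, whose level in the lungs of preterm rabbits killed 1 h after delivery stood furthest above every other group of the same sequencing run. These preterm pups (P0) were delivered by C-section on day 28 of gestation and kept in 21% oxygen, and the groups beside them were fetuses of day 28 (F28), preterm pups after 3 days (P3) and 7 days (P7), and term pups 4 days after birth (T35). A level is the mean of log2(CPM + 1) over the libraries of a group, where CPM is the usual count scaled to a common library total. The 8619 genes with a P0 level of at least 2.6 were ranked by the P0 level minus the highest of the other 4 group levels, and the 100 with the largest excess were kept. The members were thus chosen by the P0 values and the other run 2 values, which are given as a description without a test. The other comparisons, with term-born animals, ask whether the same genes also stood high at natural birth. The choice did not fix them, although some F28 and T35 animals served in both and it favoured members low at F28, P3, P7 and T35.

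All animals were New Zealand White rabbits, and the labels give the right lung homogenate as the tissue, whereas the study's methods state that whole lungs were used at F20 and F23. Fetal pups (F20, F23, F25, F27, F28 and F29, named by the day of gestation) were taken by C-section and their lungs were removed at once, with the aim that no breath was drawn. Dams were sedated and then killed before C-section. Term pups were born naturally on day 31 and sampled at once (T31) or after 4, 6 and 11 days with their mothers in room air (T35, T37 and T42). P3 and P7 pups stayed in incubators at 21% oxygen and were tube-fed a milk replacer. P0 and F28 animals shared the gestational age and the C-section and differed by the 1 h after delivery, which included the time in air. T31 and F29 differed by age, by birth into air, by route of delivery and by the sedation of the dam. In these data those factors cannot be told apart. The interval between birth and sampling at T31 is not stated, so T31 need not match the 1 h of P0.

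As background, birth replaces the liquid of the fetal lung with air within a short time, stretches the distal airspaces, raises oxygen tension and brings a surge of stress hormones. Cells that meet such a sudden stimulus commonly answer first with a wave of short-lived transcripts, the immediate early genes, which need no newly made protein and whose RNA falls again once the stimulus has passed. Lung tissue is a mixture of epithelial, endothelial, mesenchymal and immune cells, so that a change in bulk RNA can be a change per cell or a change in the share of cells, and these cannot be told apart here. The table names genes by Ensembl identifiers, and 0 of them could be paired with a symbol, so that neither the functions of the members nor cell type markers are given, and the members are called by their rank, from 1 for the largest excess at P0.

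The 54 libraries came from 45 animals and 3 sequencing runs, with 18, 12 and 24 libraries in runs 1, 2 and 3, and held between 5771693 and 8073755 counts each. No pair of libraries held identical values. P0 was sequenced only in run 2 (3 animals), F29 only in run 1 (3 animals), and T31 in run 1 (animals 1, 10 and 15) and in run 3 (animals 4, 11 and 18). Levels were compared within a run, since animals sequenced more than once gave lower member levels in later runs. F28 animal 2, for example, had a mean member level of 4.58 in run 1, 4.38 in run 2 and 4.17 in run 3.

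The excess at P0 ran from 2.84 on the log2 scale at rank 1 to 0.433 at rank 100, with a median of 0.578. It was at least 1, a doubling of CPM + 1, in the first 20 members alone. The limit of the list fell on a smooth slope: rank 100 had an excess of 0.433 and the first gene left out 0.432. P0 levels of the members covered the range from 2.62 to 11.98 with a median of 4.82, and 96 of the 100 had at least 1 count in every one of the 54 libraries. Most members were thus also counted in every fetal and term-born lung. Without P0 animal 4 the same ranking kept 64 of the 100. In 54 of the 100 all 3 P0 libraries lay above all 9 other libraries of run 2, against 1.9% of the 8619 genes; the ranking used these values, so nothing is read from that count.

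Rank 1, ENSOCUG00000000737, had levels of 3.51, 4.63 and 4.23 in P0 animals 1, 3 and 4. Its highest level among the other 9 libraries of run 2 was 1.64, in P3 animal 1, and its lowest was 0.18, in F28 animal 9. All P0 libraries stood above the rest, and the P3 group level was 1.28, an order that the ranking selected for. Rank 2 had P0 levels of 5.06, 4.99 and 4.09 and reached no more than 2.98 elsewhere, in P7 animal 3. Rank 3 had P0 levels of 4.38, 5.73 and 6.72 and at most 3.33 elsewhere, in P7 animal 4. These first 3 members thus separated P0 from all other run 2 groups without overlap, although P0 animal 1 was the lowest of its group in ranks 1 and 3.

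Rank 4 had 3.91, 6.25 and 6.02 in P0 animals 1, 3 and 4, and the highest other library, T35 animal 6, had 3.00. Rank 6, ENSOCUG00000003905, had P0 levels of 7.25, 9.0 and 9.47. Its highest other value was 7.12, in P3 animal 1. In both of these members animals 3 and 4 stood close together and animal 1 lay nearer to the other groups than to them. Rank 9 was more even, with P0 levels of 4.81, 5.35 and 4.98 against group levels of 3.60 at P3, 3.33 at P7, 2.57 at T35 and 1.98 at F28. Its order over the groups, P0 above P3, P7, T35 and F28, placed the postnatal lungs between P0 and the fetal lungs.

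**Figure D1:**
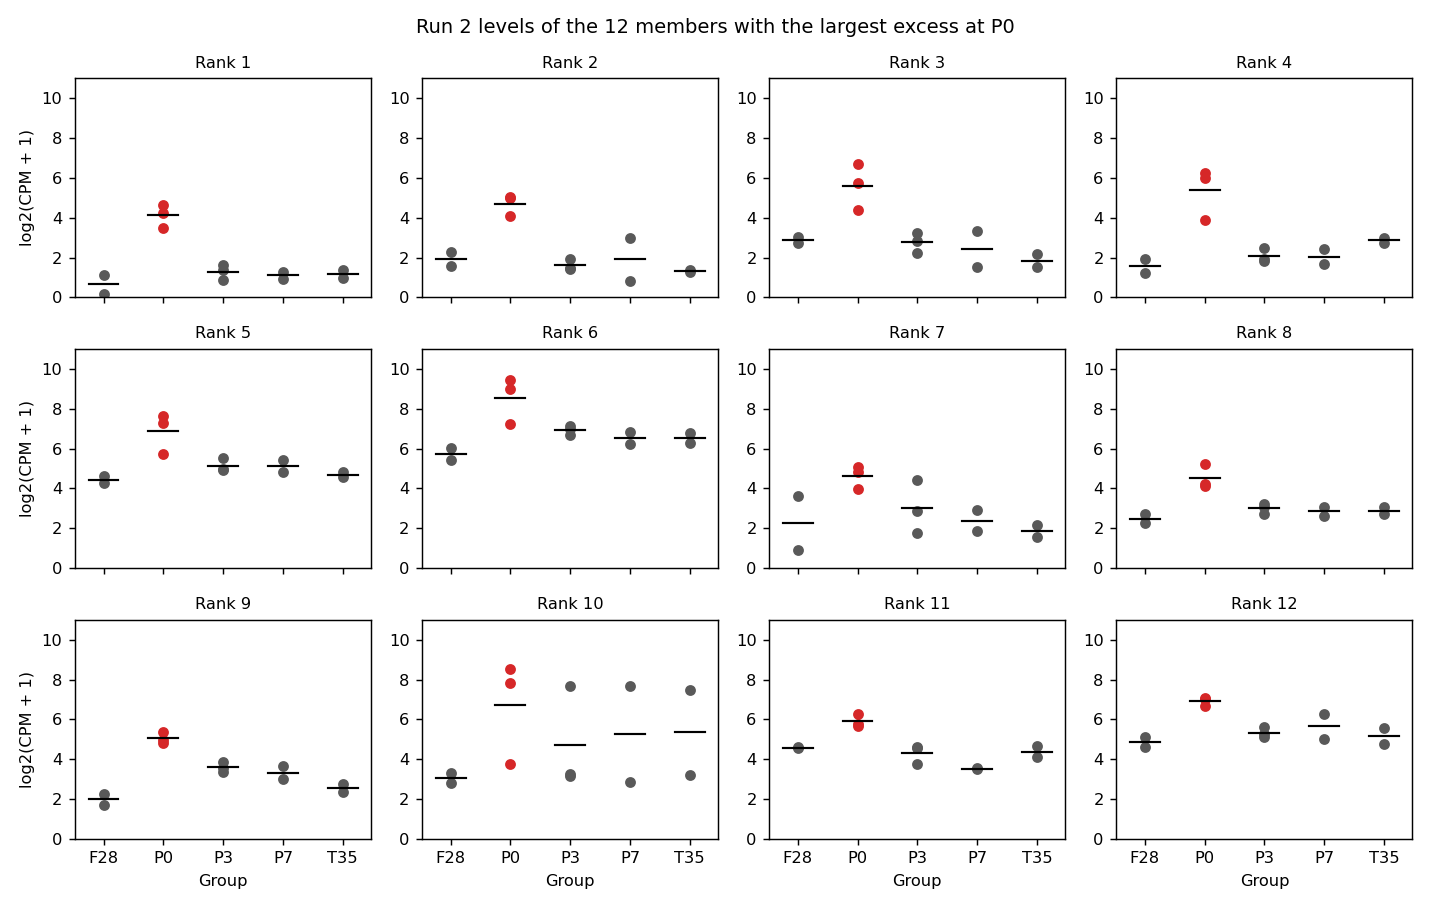
Levels, as log2(CPM + 1), of the members of rank 1 to 12 in the 12 libraries of run 2; each point is 1 animal, the bar is the group mean and P0 is in red. P0 lies above the other groups in most panels, whereas the points of rank 10 fall into an upper and a lower level within P0, P3, P7 and T35.

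Averaged over all 100 members, the run 2 level was 5.44 ± 0.14 (SD, n = 3) at P0, 4.48 ± 0.10 (n = 3) at P3, and 4.38 (n = 2) at P7, 4.30 (n = 2) at F28 and 4.26 (n = 2) at T35. The first 20 members had P0 library means of 5.10, 5.90 and 5.70 in animals 1, 3 and 4, and ranks 21 to 100 were closer together, with a group mean of 5.41 ± 0.083 (SD, n = 3). P0 animal 1 was the lowest of the 3 in 14 of the first 20 members and in 48 of all 100, and it was the lowest in 38.2% of the 8619 genes. Its total of 7413106 counts was not low for the series. In 13 members the SD over the 3 P0 animals was larger than the excess that placed them in the list.

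The order of the other run 2 groups is given next as a description. The ranking used these values and the same counts were not made over all genes, so no trait of the members is read from them. The highest group beside P0 was F28 in 35 members, P3 in 33, P7 in 19 and T35 in 13. P3 stood above F28 in 58 members, P7 above F28 in 52 and T35 above F28 in 43. Among the first 20 members, the P3 level was 5.15 and the F28 level 4.44 at rank 5, and 6.92 and 5.72 at rank 6. The opposite order was seen at rank 11, with 4.32 at P3 and 4.57 at F28, and at rank 13, with 2.34 and 2.74. For each of these members P0 was the peak, which the ranking fixed, and the level on either side of the peak differed between members.

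In the term-born series, T31 was the time point with the highest mean for 42 of the 100 members in run 1, where 6 time points were measured, and for 42 of the 100 in run 3, where 7 were measured. Of the 8619 genes, T31 was the highest time point for 18.3% in run 1 and for 11.0% in run 3. The T31 animals of the 2 runs were different animals. Of the first 20 members, T31 was highest for 12 in run 1 and for 11 in run 3. F25, the earliest time point of run 1, was highest for 22 members and for 36.2% of the 8619 genes, and F20, the earliest of run 3, for 19 members and 29.7% of those genes. F28 animals 2 and 9 and T35 animals 6 and 11 also gave run 2 libraries that the ranking used. Members low at F28 and T35 were thus favoured, and the T31 counts were partly set by the choice. In run 1, F28 was highest for 7 members and 11.8% of the 8619 genes, and T35 for 5 members and 16% of them. These counts are descriptions, with no test.

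**Figure D2:**
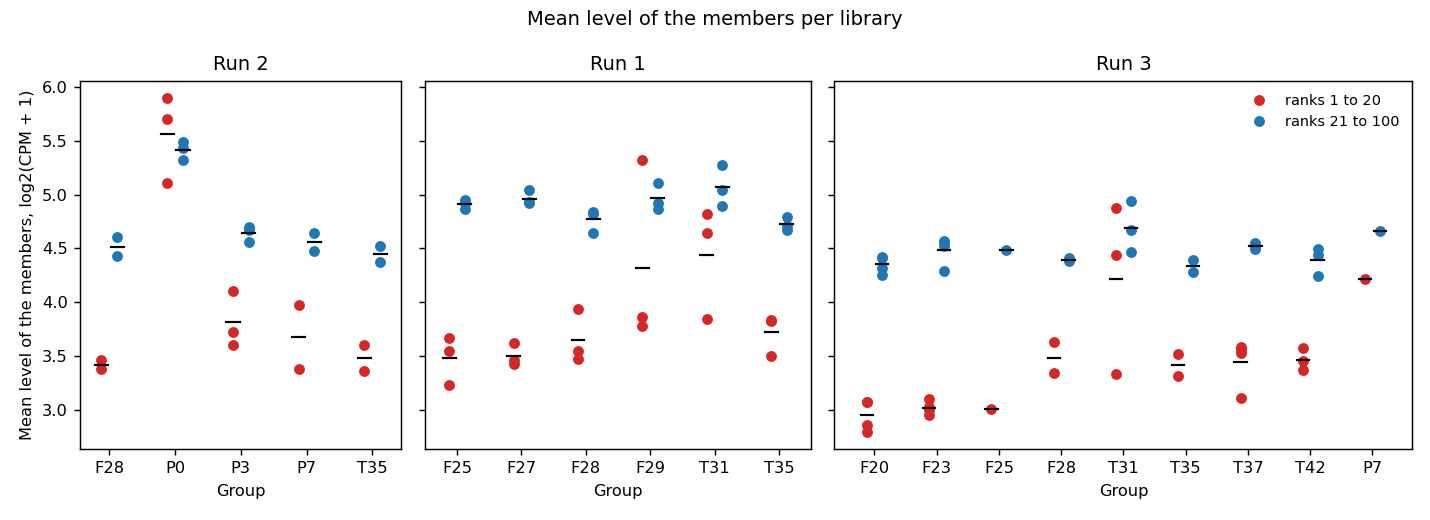
Mean level of the members, as log2(CPM + 1), in every library of run 2 (which chose the members), run 1 and run 3; red points are ranks 1 to 20, blue points ranks 21 to 100 and bars the group means. Ranks 1 to 20 reach 5.32 in F29 animal 7, 4.82 in T31 animal 15 and 4.88 in T31 animal 18, while T31 animal 11 lies at 3.33.

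The first comparison set T31 against F29 in run 1, the last fetal time point before natural birth. No member was called higher or lower by edgeR's quasi-likelihood test, where a call needed a fold change above 2 and a Benjamini-Hochberg adjusted p of at most 0.05 over the 14600 genes tested. All 100 members were tested. Across all genes 5 were called higher (0.0342%) and 1 lower (0.00685%), so that few calls were made anywhere in this comparison. An unadjusted p under 0.05 was reached by 28 of the 100 members and by 14.4% of all genes. The limma-voom test called 0 members in either direction (0.0205% of all genes higher and 0% lower), and DESeq2 called 3 higher (ranks 24, 63 and 82) and 0 lower, against 0.603% and 0.342% of all genes. The median log2 fold change of the members was 0.09, against 0.01 over all genes, and 61 of the 100 were positive. All 3 T31 libraries lay above all 3 F29 libraries in 8 members, against 8.31% of the 8619 genes, and below them in 8, against 9.63%.

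Single animals decided much of this comparison. Among the first 20 members the mean level was 3.86, 5.32 and 3.77 in F29 animals 2, 7 and 11, and 4.65, 3.84 and 4.82 in T31 animals 1, 10 and 15. One fetus, animal 7, was thus above every T31 animal, and a T31 animal was level with the other fetuses. F29 animal 7 was the highest of its group by at least 1 log2 unit in 7 of the first 20 members and 10 of the 100, and in 0.383% of the 8619 genes. Its total was 6540473 counts, and that of T31 animal 10 was 6591795. T31 animal 10 was the lowest T31 library of the run in 54 members, against 26.5% of the 8619 genes. Without F29 animal 7 the median log2 fold change of the members was 0.34 and that of the first 20 was 0.79, still with 0 members called by edgeR. Without T31 animal 15, 6 members were called higher and 1 lower, in a fit whose calls over all genes rose to 232 higher and 147 lower, and the median of the first 20 members was -0.44.

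Rank 4 showed this most plainly, with F29 levels of 0.72, 6.37 and 1.84 in animals 2, 7 and 11 and T31 levels of 3.37, 2.59 and 7.27 in animals 1, 10 and 15. Its log2 fold change in T31 was 0.99 ± 1.12 (SE), with an adjusted p of 0.741 from edgeR. ENSOCUG00000003905 had 6.84, 10.50 and 7.32 at F29 and 8.79, 7.73 and 10.77 at T31. Both groups held 1 animal above 10, and the log2 fold change was 0.48 ± 0.80 (SE; adjusted p of 0.836, edgeR). Without T31 animal 15 the change of this member was -0.81 and that of rank 4 was -1.97, and without F29 animal 2 that of ENSOCUG00000003905 was -0.0050. Rank 1 differed in that no single fetus stood so high: ENSOCUG00000000737 had 2.02, 3.19 and 2.35 at F29 and 4.44, 3.22 and 3.04 at T31, with a log2 fold change of 1.27 ± 0.54 (SE; adjusted p of 0.293, edgeR).

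Ranks 4, 5, 6, 8 and 15 were high in the same animals, a set picked out here after their values were seen. F29 animal 7 had 6.37, 7.71, 10.50, 6.67 and 6.60 in these 5 members, whereas F29 animal 2 had 0.72, 3.94, 6.84, 3.78 and 5.64. T31 animal 15 of run 1 had 7.27, 6.55, 10.77, 5.88 and 7.20. In run 3, T31 animal 18 had 6.77, 7.41, 10.07, 4.28 and 7.56, and T31 animal 11 had 1.76, 4.72, 6.24, 2.50 and 5.48. Ranks 1, 3 and 9 followed other animals in run 1: T31 animal 1 had 4.44, 5.92 and 5.04 in these, and animal 15 had 3.04, 2.18 and 3.14. The T31 pup with the highest level was thus not the same in all of these members.

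**Figure D3:**
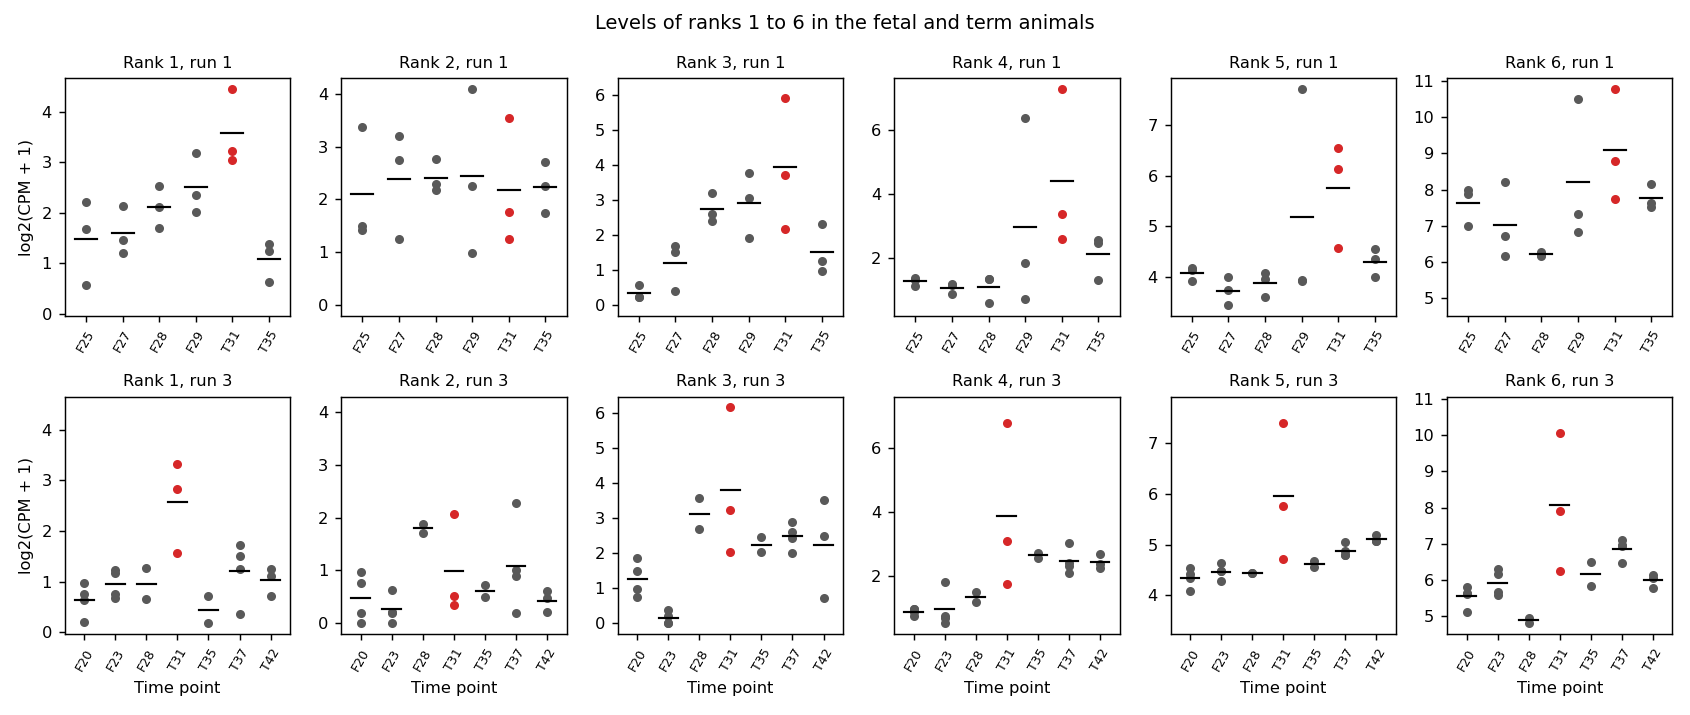
Levels, as log2(CPM + 1), of the members of rank 1 to 6 in the fetal and term-born animals of run 1 (upper row) and of run 3 (lower row); each point is 1 library, bars are group means and T31 is in red. The T31 animals are widely spread, and in ranks 4 to 6 one F29 animal of run 1 reaches levels like those of the highest T31 animal.

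Against F28 in run 1, 12 members were called higher at T31 and 0 lower, where 0.795% of the 14600 genes were called higher and 0.788% lower (edgeR). The members called were ranks 6, 12, 15, 24, 38, 39, 40, 52, 63, 64, 79 and 83, and the median log2 fold change over the members was 0.44, against 0.01 over all genes. With library totals in place of TMM factors (a scaling on the bulk of genes), 11 members were called higher, and over all genes 94 were called higher and 165 lower in place of 116 and 115. F28 animals 2 and 9 also gave run 2 libraries that the ranking used, so these fetal levels were not fully independent of the choice. With only F28 animal 7, which the ranking did not use, in the fetal group, 0 members were called, and over all genes 0 were called higher and 3 lower. Counted in both directions, leaving out F28 animal 2, 7 or 9 gave 4, 1 or 5 members, leaving out T31 animal 1 gave 3, and leaving out T31 animal 15 gave 19. Calls over all genes moved with them, to 31 higher and 49 lower, 12 and 13, 40 and 40, 36 and 18, and 316 and 279 in the same order. The fit restricted to the T31 and F28 libraries called 5 members, with 25 genes higher and 65 lower in all.

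Run 3 set other T31 animals against F28 animals 2 and 7 and called 17 members higher and 1 lower, against 1.78% and 3.12% of the 14817 genes tested (edgeR). With library totals these were 13 and 2 members, and 186 and 591 in place of 264 and 463 over all genes. The median log2 fold change was 0.52, against 0.04 over all genes, and 0.31 without T31 animal 4. F28 animal 2 also gave a run 2 library that the ranking used, so this fetal group was not fully independent of the choice either. Rank 38 had levels of 5.35, 3.82 and 2.80 in T31 animals 4, 11 and 18, and 0.65 and 1.51 in F28 animals 2 and 7. Those fetal libraries held only 4 and 13 counts of rank 38. Its groups did not overlap, and its log2 fold change was 4.06 ± 0.70 (SE; adjusted p of 0.000882, edgeR). In run 1 the same member had 4.01, 3.13 and 2.27 in T31 animals 1, 10 and 15 against 1.00, 1.13 and 0.93 in F28 animals 2, 7 and 9, a log2 fold change of 3.17 ± 0.52 (SE; adjusted p of 0.00931, edgeR). It rose in both runs, which share F28 animals 2 and 7 but no T31 animal, and kept its call whichever single library was left out.

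ENSOCUG00000003905 had T31 levels of 7.91, 6.24 and 10.07 in animals 4, 11 and 18 of run 3 against 4.97 and 4.82 at F28. All T31 animals were above both fetuses, with a log2 fold change of 4.16 ± 0.73 (SE; adjusted p of 0.00104, edgeR), and in run 1 the change was 3.53 ± 0.88 (adjusted p of 0.041). The run 1 call was lost without F28 animal 2, 7 or 9 or T31 animal 1 or 15, with changes between 2.24 and 3.81. Rank 39 was among the steadiest, with 7.23, 6.33 and 7.46 at T31 against 5.27 and 4.45 at F28 in run 3, and it was called there (log2 fold change 2.31 ± 0.35, adjusted p of 0.000298, edgeR). In run 1 its change was 1.84 ± 0.32 (adjusted p of 0.0102), and 1.67 and not called without F28 animal 7. Rank 39 was not called at T31 against T37 or T42. Its run 3 counts were 1100, 563 and 1414 at T31, 910, 571, 954 and 679 at T37, and 854, 692 and 689 at T42. ENSOCUG00000000737 was called against F28 in run 3 (log2 fold change 2.62 ± 0.76, adjusted p of 0.0303, edgeR) but not in run 1, where the change was 1.90 ± 0.56 (adjusted p of 0.0677). Its run 3 call was lost without F28 animal 2 or 7 or T31 animal 4 or 18, with changes between 2.05 and 3.38, and in run 1 it was called, at 2.16, without T31 animal 15. Leaving out F28 animal 2 or 7 lowered the run 3 count to 8 or 7 members, and leaving out T31 animal 11 raised it to 28, where calls over all genes were 102 higher and 318 lower, 126 and 286, and 274 and 415. The fit restricted to the T31 and F28 libraries called 1 member, with 7 genes higher and 46 lower in all.

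Between F28 and F29 in run 1 no member was called, where 0.00685% of all genes were called higher at F29 and 0% lower (edgeR). An unadjusted p under 0.05 was reached by 20 of the 100 members and by 4.64% of all genes, and without F29 animal 7 by 7 members and 3.31% of all genes. The other tools, limma-voom and DESeq2, also called 0 members. The median log2 fold change of the members was 0.27, against -0.0037 over all genes, and 76 of the 100 were positive. Without F29 animal 7 these medians were 0.13 and -0.0083. F28 animals 2 and 9 also gave run 2 libraries that the ranking used, so that a rise from F28 was favoured by the choice. Rank 4 illustrates the spread, with a log2 fold change of 4.63 ± 1.5 (SE) and an adjusted p of 0.999 from edgeR.

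Later postnatal lungs gave a further view of the members at T31. In run 1, 5 members (ranks 1, 3, 48, 70 and 80) were called higher at T31 than at T35 and 0 lower, against 0.37% and 0.904% of all genes (edgeR). With library totals 6 members were called higher, and over all genes 80 higher and 114 lower in place of 54 and 132. The median log2 fold change was 0.36 and 81 of the 100 members were positive. T35 animals 6 and 11 gave run 2 libraries that the ranking used, and with only T35 animal 1 in the T35 group 1 member was called, with 15 genes higher and 146 lower in all. The count in both directions was 0 without T31 animal 1, 8 without T31 animal 10, 11 without T31 animal 15, and 1 or 2 without T35 animal 6 or 11. Over all genes these fits called 11 higher and 16 lower, 60 and 86, 144 and 209, 11 and 35, and 31 and 167. The fit restricted to the T31 and T35 libraries called 0 members, with 6 genes higher and 18 lower in all.

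T37 and T42 were sequenced in run 3 alone and their libraries had no part in the ranking. The ranking nevertheless favoured members low at P3, P7 and T35, which are postnatal lungs too. Calls higher at T31 than at T37 or T42 may thus be partly set by the choice. Against T37, 16 members were called higher at T31 and 1 lower, where 1.8% of the 14817 genes were called higher and 3.85% lower (edgeR). Of the members called higher against F28 in run 3, ranks 38, 39, 40, 60, 64 and 79 were not called against T37. Against T42, 20 were called higher and 2 lower, where the shares over all genes were 1.48% and 3.82%. The members' median log2 fold changes were 0.46 and 0.52, and those of all genes were both -0.01. With library totals the median over all genes against T37 moved to -0.16 and that of the members to 0.32, and 12 members were called higher and 2 lower, with 163 and 765 calls over all genes in place of 266 and 570. Of the first 20 members, 10 were called higher against T37 and 9 against T42, and the median changes of these 20 were 1.36 and 1.42. Without T31 animal 18 the calls among these 20 were 3 and 6 and the medians 0.54 and 0.55. All T31 libraries lay above all T37 libraries in 12 members (6.46% of the 8619 genes) and below them in 5 (16.5%), and above all T42 libraries in 25 (11.1%) and below them in 3 (19.6%). The comparisons with T37 and with T42 share the 3 T31 libraries. The count in both directions against T37 was 28 without T31 animal 11 and 10 without T31 animal 18, and that against T42 was 14 without T31 animal 18 or without T42 animal 50. Over all genes these fits called 337 higher and 631 lower, 179 and 493, 231 and 571, and 138 and 402. Fits restricted to the libraries of each pair called 2 members against T37, with 88 genes higher and 215 lower in all, and 4 against T42, with 54 and 234.

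ENSOCUG00000000737 had 2.83, 1.57 and 3.33 in T31 animals 4, 11 and 18, and between 0.36 and 1.72 in the 4 T37 animals. The lowest T31 animal lay within the T37 range, and the log2 fold change was 2.15 ± 0.57 (SE; adjusted p of 0.0147, edgeR). At T42 it had 1.10, 1.25 and 0.72, all below T31, with a log2 fold change at T31 of 2.52 ± 0.65 (adjusted p of 0.0131). Without T31 animal 18 neither was called (1.58 against T37 and 1.95 against T42), nor was the latter without T42 animal 50 (2.29). Rank 11 was more uniform: T31 levels were 4.86, 5.08 and 6.10 and T37 levels 4.11, 3.44, 3.45 and 3.70. Its groups did not overlap, and the change was 2.01 ± 0.28 (adjusted p of 0.000148, edgeR). T42 levels of the same member were 3.54, 3.43 and 3.36, a change at T31 of 2.20 ± 0.31 (adjusted p of 0.000143), and both calls held whichever single library was left out. In run 1 rank 11 was not called at T31 against F29, F28 or T35. Its counts there were 185, 127 and 330 at T31 and 117, 134 and 140 at F28.

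At rank 3 a single newborn stood out in run 3, with 6.16 in T31 animal 4 against 3.22 and 2.03 in animals 11 and 18. T37 levels were between 2.01 and 2.89, and it was called against T37 (log2 fold change 2.62 ± 0.75, adjusted p of 0.023, edgeR) while against T42 the adjusted p was 0.0536. Without T31 animal 4 its change against T37 was 0.40, and it was also not called without T37 animal 46 (2.44) or 47 (2.53). Against T42 it was called without T31 animal 11 (2.88), T31 animal 18 (2.98) or T42 animal 33 (3.32). Rank 48, further down the list, was called higher at T31 against T35 in run 1 (log2 fold change 1.27 ± 0.28, adjusted p of 0.0267) and against T37 in run 3 (1.10 ± 0.22, adjusted p of 0.0021, edgeR). The first call was lost without T31 animal 1 or T35 animal 6 or 11, with changes between 0.98 and 1.23, and the second without T31 animal 4, with 0.71. The comparisons share no animal, and of the 5 members called against T35, 3 (ranks 1, 3 and 48) were among the 16 called against T37. That is 60% of the first list and 18.8% of the second. Against T42, 2 of the 5 (ranks 1 and 48) were among the 20 called, 40% and 10% of these lists. The overlap of calls over all genes was not counted, so nothing is read from these shares.

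**Figure D4:**
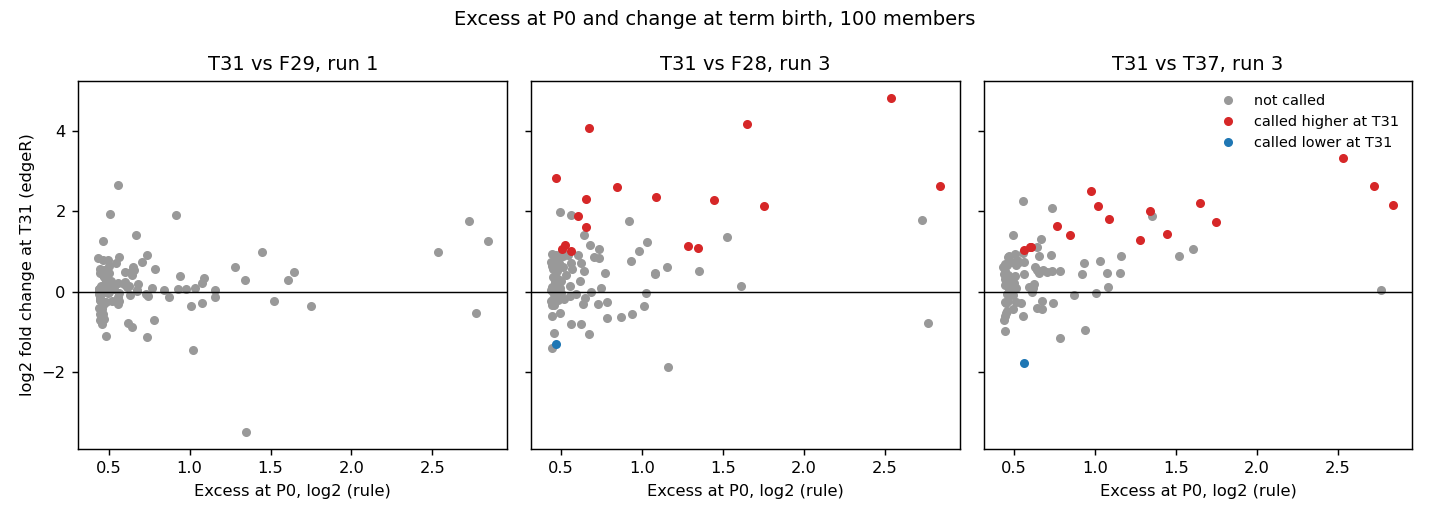
Log2 fold change at T31 from edgeR against the excess at P0 that ranked the members, 1 point per member, for T31 against F29 (run 1), F28 (run 3) and T37 (run 3); red points were called higher at T31 and blue points lower. No point is called against F29, 17 red and 1 blue against F28, and 16 red and 1 blue against T37.

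Few members were lower at T31. Rank 54, ENSOCUG00000037275, had 1.60, 2.90 and 2.63 in T31 animals 4, 11 and 18, and 4.37, 3.17, 4.60 and 4.29 in T37 animals 12, 27, 46 and 47. The groups did not overlap, and its log2 fold change was -1.76 ± 0.34 (SE; adjusted p of 0.00168, edgeR) against T37 and -1.11 ± 0.36 (adjusted p of 0.0445) against T42. The call against T37 held whichever single library was left out, and that against T42 was lost without T31 animal 4 (-0.75) or T42 animal 14 (-1.14) or 50 (-0.89). The earliest fetal lungs held more of it, with 4.76 to 5.54 at F20 and 5.37 to 5.95 at F23. At P0 its levels were 3.33, 4.05 and 6.41 in animals 1, 3 and 4, and the highest other group level of run 2 was 4.04, at P7. Animal 1 lay below that level and animal 3 about at it, so that the excess rested on animal 4.

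Rank 76, ENSOCUG00000029958, was called lower at T31 than at F28 in run 3 (log2 fold change -1.29 ± 0.31, adjusted p of 0.0083, edgeR), with T31 levels of 4.04, 4.48 and 5.04 against 5.94 and 5.95. That call was lost without F28 animal 2 or 7, with changes of -1.32 and -1.28. In run 1 its change against F28 was -0.71 ± 0.33 (adjusted p of 0.248), and -1.16 and called without T31 animal 15. It was high in all 3 P0 animals, with 6.44, 6.62 and 6.00. Rank 97 was the other member called lower against T42. Its P0 levels were 3.18, 2.45 and 2.65, and its change at T31 was -1.57 ± 0.47 (adjusted p of 0.0306, edgeR). This call was lost without T31 animal 11 or 18 or T42 animal 14 or 33, with changes between -1.61 and -1.17.

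The P0 animals disagreed in several members, and the 6 with the largest SD at P0 were ranks 10, 69, 55, 32, 54 and 4. Rank 10 had P0 levels of 3.76, 7.82 and 8.52 in animals 1, 3 and 4. Over all 54 libraries its levels left a gap between 4.91 and 6.88, with 21 libraries above it and 33 below, and the upper libraries came from all 3 runs and from fetal, term and preterm animals. Each of the 6 animals with more than 1 library stayed on one side of that gap in all of its libraries. F28 animal 7 had 6.88 in run 1 and 8.08 in run 3, and F28 animal 2 had 2.71, 3.30 and 3.73 in runs 1, 2 and 3.

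Ranks 32 and 55 also had an upper and a lower level. At rank 55 the gap lay between 4.37 and 5.85, with 9 libraries above it, 2 of them P0 libraries, and at rank 32 it lay between 2.88 and 3.83, with 27 above, 2 of them P0 libraries. At rank 32 F28 animal 2 and T35 animal 11 were above the gap in all of their libraries and the other 4 repeated animals below it. At rank 55 all 6 repeated animals lay below the gap, so that none had an upper level that could be followed across runs. In these 3 members both levels occurred within several groups, and the place in the list depended on which side of the gap the few animals of each run 2 group fell. They were picked out after their values were seen, and no test was made.

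**Figure D5:**
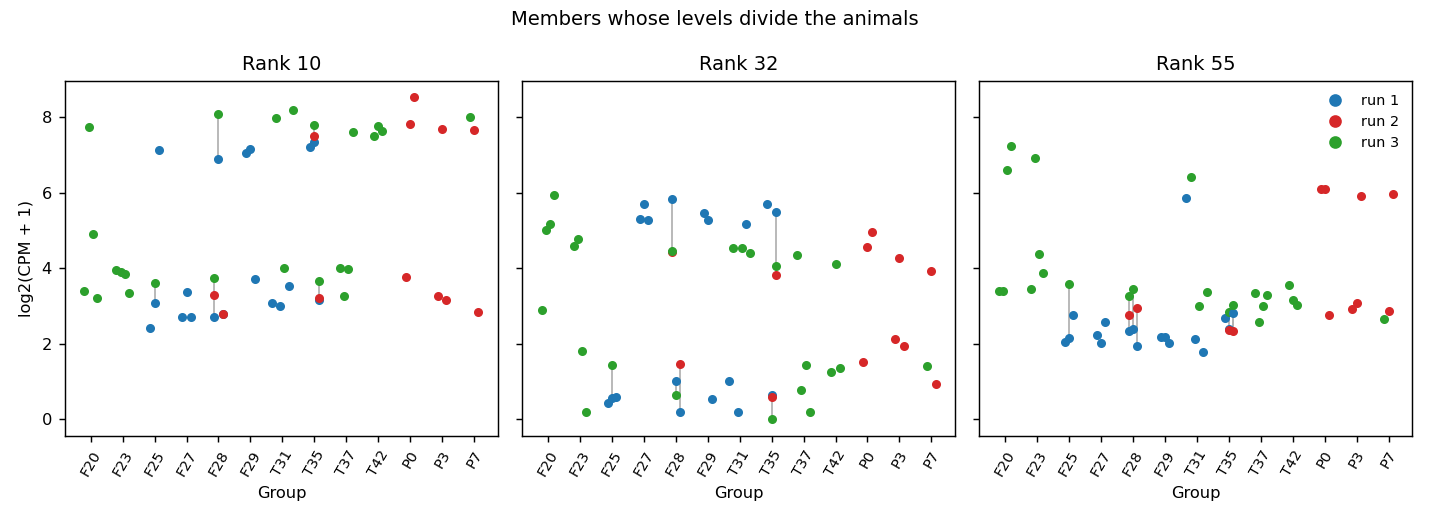
Levels, as log2(CPM + 1), of the members of rank 10, 32 and 55 in all 54 libraries; each column of points is 1 animal, grey lines join the libraries of the same animal and colours mark the run. Upper and lower levels occur side by side within several groups, and at ranks 10 and 32 repeated animals lie on both sides of the largest gap and keep their side.

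Levels of single members also differed between libraries of the same animal. In 57 of the 100, libraries of the same animal differed by more than 1 log2 unit between runs, and the median over members of this largest difference was 1.12. The same count was not made over all genes, so no trait of the members is read from it. What part low counts had in these differences was not tested. Rank 80 reached a difference of 3.26 and rank 99 of 2.49. At rank 80 the P0 levels were 2.77, 3.06 and 3.15 and no other library of run 2 was above 2.57, yet F28 animal 2 had 5.10 in run 1 and 2.57 in run 2. For such members the excess at P0 is stated within run 2 alone.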

How the data were processed

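The authors prepared QuantSeq 3′ libraries from lung RNA and sequenced them in 3 runs. They aligned the reads to the rabbit genome (OryCun2.0) with STAR and deposited raw read counts per Ensembl gene, made with HTSeq after an extension of annotated 3′ ends; versions are not given in the sources used here, and no molecular identifiers are described. All table columns were matched to labels (0 unmatched).

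CPM used library totals. Tests used edgeR 4.0.16 (quasi-likelihood, TMM, all groups of a run in the fit, and a minimum of 0.5 CPM in 3 libraries or more) in R 4.3.3, without pooling runs. limma 3.58.1 (voom, the study's own test) and DESeq2 1.42.0 were alternatives. Calls were made as in the study, at an adjusted p no higher than 0.05 together with a change of more than 2-fold. Each test compares animals; the methods state that the pups of a time point came from different dams. On simulated counts for T31 against F29 (14170 genes), edgeR called 28% of genes changed 2-fold, 80% of those changed 3-fold and 94% of those changed 4-fold, with 2 false calls. The changed genes were drawn at random among genes with a mean above 2 CPM, and no outlying animal was simulated. These shares need not hold for the members.

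The members and all lists were chosen with earlier results of these data known. Genes named were the first 20 members, members called at T31, those at the edge of the list and the 6 with the largest SD at P0; identifiers are printed for 4 of them. 0 identifiers matched a symbol in the RefSeq table used, so the lists of gene symbols could not be applied and no sequences are shown.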

Additional observations from a re-analysis of the deposited data

Results flagged for a closer look

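P7 animal 1 of run 3, the only preterm library outside run 2, was in none of the comparisons. It lay above all 9 T35, T37 and T42 libraries of its run in 31 of the 100 members, against 15.2% of the 8619 genes, and below all of them in 4, against 14%. Rank 38 had 5.30 in this animal and at most 3.95 in the T35, T37 and T42 libraries of the run, and rank 5 had 6.33 against at most 5.20. T35 animals 6 and 11 also gave run 2 libraries that the ranking used. Members low at T35 were thus favoured, and these counts were partly set by the choice. P7 animal 1 is a single animal 7 days after preterm birth, and no test was made.

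Groups of 4 animals occur in run 3 alone (F20, F23 and T37), and 30 such sets of values were examined for a sample far from the others, of which chance gives about 1 in 20. Both sets that held one were averages: T37 animal 27 had a mean level of 3.11 over ranks 1 to 20, below the other T37 animals, and F23 animal 40 had a mean level of 4.29 over ranks 21 to 100, below the other F23 animals.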

How the results depend on the processing

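Counts below are members called in either direction. For T31 against F29 the count of 0 became 3 with DESeq2 and 1 with no filter on low counts, and stayed at 0 with limma-voom, with library totals, with at least 10 counts in every library, with only the groups compared and with runs 1 and 3 fitted together with the run as a term. For T31 against F28 in run 1 (12) it was 7 with limma-voom, 21 with DESeq2, 19 with no filter, 5 with only the groups compared, 0 with glmTreat at a fold of 1.5, and 0 with F28 animal 7 as the only fetus. For T31 against T35 (5) these were 3 with limma-voom, 2 with at least 10 counts, 0 with only the groups compared, 0 with glmTreat, and 1 with T35 animal 1 as the only T35 library. In run 3, only the groups compared and glmTreat gave 1 and 8 against F28 (18), 2 and 7 against T37 (17) and 4 and 8 against T42 (22), and against T37 limma-voom gave 10 and the adjusted p alone 32. The fits with 1 animal in a group assume that it varies like the others, and both were added after the data were seen. The cause of these differences was not tested, beyond the fewer libraries behind the spread in fits of the groups compared alone.

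Leaving out 1 library gave 0 to 7 members for T31 against F29, 1 to 19 against F28 and 0 to 11 against T35 in run 1, and 7 to 28 against F28, 10 to 28 against T37 and 14 to 30 against T42 in run 3. F29 against F28 stayed at 0 throughout. The members' median log2 fold change for T31 against F29 ranged from 0.018 to 0.34. Of the 100 members, 64 to 93 were kept without 1 run 2 library, 49 with the mean of the 4 other groups in place of their highest, and 42 with F28 as the only comparator. Single members reversed their direction 3 times, all without calls and all in T31 against F29: rank 4 without T31 animal 15 (-1.97) and rank 6 without T31 animal 15 (-0.81) or F29 animal 2 (-0.0050), with highest values of 5.13 for rank 4 and 2.59 for rank 6 among these omissions. Over the 25 changes of single members given with a test, calls were lost in 35 and gained in 3 of 198 recalculations with another setting, and lost in 29 and gained in 5 of 150 that left out a library.

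F28 and F29 share replicate numbers 2 and 7, which are numbers of animals from different dams. With the number as a replicate block 0 members were called, as without it. The other groups compared share fewer than 2 numbers. At this depth a P0 level of 2.6 corresponds to about 36 counts in a library of median size.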
